A study of Homo sapiens with 4 samples.

Results

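The centromere and kinetochore genes described here are a list of 38 genes, found by symbol among the 20263 rows of the count table, and all 38 were measured and tested. They comprise 5 genes of centromeric chromatin and its loading, 14 of the constitutive centromere network, 10 of the KMN network, 4 of the corona, 3 of the SKA complex and 2 of the chromosomal passenger complex. The cells were MDA-MB-231, a human triple-negative breast cancer line, treated for 24 h with Rib_CA, which the series title names as a derivative of the CDK4 and CDK6 inhibitor ribociclib, or with DMSO, a common vehicle. Messenger RNA libraries were sequenced from 2 samples per group. The dose of Rib_CA is not given in the labels used here, and no label says whether the samples of a group were separate cultures, so the p-values reflect only how these libraries vary, and that variation may be technical.

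The kinetochore is the protein assembly that couples a chromosome to spindle microtubules in mitosis. Its base is chromatin that carries CENPA, a histone H3 variant that marks the centromere through cell division. The constitutive centromere network (CCAN) binds that chromatin throughout the cell cycle, and the KMN network, made of KNL1, the MIS12 complex and the NDC80 complex, is built on it in mitosis and holds microtubules. The fibrous corona forms outermost on unattached kinetochores. Many of these genes are transcribed mainly in G2 and mitosis, so in bulk RNA fewer cells in those phases and less RNA per cell cannot be told apart.

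The libraries held 38865103 and 37772266 counts in Rib_CA and 34774542 and 37754168 in DMSO. The members had 241 to 23132 counts in a library. Levels are given in CPM, counts per 1000000 scaled by edgeR's TMM factors. VIM, MSN, CD44, EGFR and CAV1 lay between 242 CPM (CAV1, Rib_CA 2) and 4221 CPM (VIM, DMSO 2), whereas SPARC, which had been listed as a marker of the line too, lay at 0.302 to 1.002 CPM. ESR1 had 4 to 23 counts and CDH1 0 to 3 counts in a library, PGR lay at 0.372 to 1.76 CPM and GATA3 at 3.04 to 21.7 CPM. Of markers of other cell types, CD3E had 0 counts in every library, ALB 0 to 6 and PTPRC 2 to 22, while PECAM1 and CD14 had 17 to 41 counts. Mitochondrial transcripts took 5.78% and 3.13% of the counts in Rib_CA 1 and 2, against 8.68% and 21.7% in DMSO 1 and 2, and the part of this difference in the results was not tested. The proliferation marker MKI67 lay at 190.5 and 100.1 CPM in Rib_CA and at 1478 and 1518 CPM in DMSO.

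After Rib_CA, 9 of the 38 genes fell and none rose (edgeR's quasi-likelihood test, Benjamini-Hochberg adjusted p under 0.05 over 13667 genes). The genes that fell were CENPE, CENPF and KNTC1 of the corona, KNL1, NDC80 and NUF2 of the KMN network, CENPC and CENPU of the CCAN, and SKA3. They were 2.70-fold to 12.4-fold lower, with adjusted p from 0.0285 to 0.0450. This is 23.7% of the members, where 5.11% of all genes tested were called lower and 2.01% higher. At an unadjusted p under 0.05, 14 members were lower and 2 higher, beside 2011 and 1868 of all 13667 genes tested. DESeq2 called 13 members lower and 1 higher, beside 1514 and 1043 of all genes. Leaving out 1 library changed how many members the edgeR test called, as given below. With the GC and length correction described below it called none. The median log2 fold change of the members was -0.29, beside 0.03 over all genes tested. Both Rib_CA libraries lay below both DMSO libraries for 18 members (47.4%, against 28.4% of all genes) and above both for 6 members (15.8%, against 30.4%), and the libraries overlapped for 14. Over all genes tested, 58.8% did not overlap. With libraries scaled by total counts alone, the median of all genes moved by 0.20 on the log2 scale, 6 members were lower (CENPC, NDC80 and NUF2 lost their calls), and over all genes 260 were higher and 328 lower, against 275 and 699 with TMM (44.2% of calls higher, against 28.2% with TMM).

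**Figure D1:**
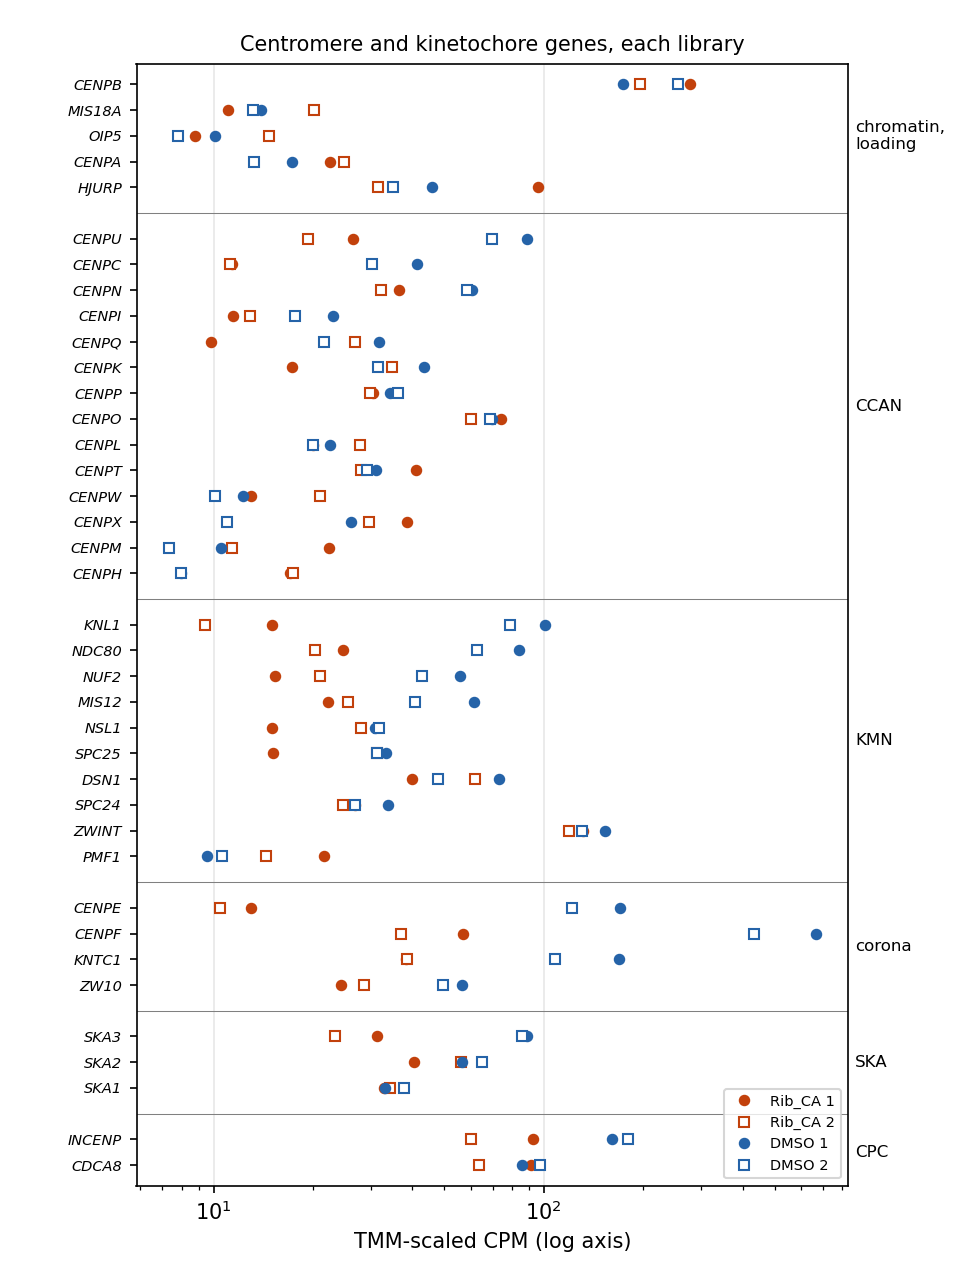
Level of each of the 38 genes in each library, in TMM-scaled CPM on a log axis, grouped by role (CCAN, constitutive centromere network; CPC, chromosomal passenger complex). The Rib_CA points lie left of the DMSO points for CENPE, CENPF, KNTC1 and KNL1 and mix with them for genes such as CENPB, CENPO and DSN1.

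The outer corona held the largest differences. CENPE, the kinesin that carries chromosomes to the metaphase plate, lay at 13.02 and 10.4 CPM in the Rib_CA libraries, against 170.4 and 121 CPM in the DMSO libraries. It fell 12.4-fold (log2 fold change -3.64 ± 0.32 SE; adjusted p = 0.0285), and the groups were far apart. CENPF, a very large coiled-coil protein of the corona and the nuclear envelope, lay at 57.0 and 36.9 CPM in Rib_CA, against 667 and 432 CPM in DMSO. It fell 11.7-fold (adjusted p = 0.0285) and had the most CPM of any member in DMSO, on a scale that is not corrected for transcript length. KNTC1, also called ROD, and ZW10 are parts of the RZZ complex, which recruits dynein and checkpoint proteins. KNTC1 lay at 38.3 and 38.6 CPM in Rib_CA, against 169 and 108 CPM in DMSO, and fell 3.60-fold (adjusted p = 0.0293), a call that was lost without DMSO 1. ZW10 lay at 24.4 and 28.5 CPM in Rib_CA, against 56.4 and 49.6 CPM in DMSO. Both Rib_CA values were below both DMSO values, yet ZW10 did not pass in edgeR (log2 fold change -1.01 ± 0.27 SE; adjusted p = 0.0722). It passed in DESeq2 (adjusted p = 0.00789) and in edgeR without Rib_CA 1 or without Rib_CA 2 (adjusted p = 0.0421 and 0.0355). CENPE (ENSG00000138778) is annotated at chr4:103105806-103198409 on the minus strand and CENPF (ENSG00000117724) at chr1:214603195-214664588 on the plus strand in GENCODE release 29 (GRCh38).

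The promoter windows of 5 genes are shown because they stand for the split among the members: CENPE, CENPF and NUF2 fell, while SPC24, of the same complex as NUF2, and CENPA did not pass. Each window holds 250 bases before and 50 after the gene start in RefSeq (GRCh38.p14), read 5′ to 3′ on the gene's strand. Capitals mark matches on either strand to TTTGAA or TTCGAA, the core of the cell cycle genes homology region (CHR) to which the MuvB complexes bind, to CCAAT, to which the factor NF-Y binds, or to the E2F-type elements TTTCGCGC and TTTGGCGC.
CENPE, chr4:103198294-103198593, minus strand: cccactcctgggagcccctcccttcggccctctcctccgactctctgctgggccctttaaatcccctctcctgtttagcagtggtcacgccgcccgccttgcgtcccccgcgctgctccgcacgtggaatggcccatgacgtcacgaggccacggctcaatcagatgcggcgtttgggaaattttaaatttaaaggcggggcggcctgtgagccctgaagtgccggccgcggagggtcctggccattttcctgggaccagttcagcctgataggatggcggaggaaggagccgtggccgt
CENPF, chr1:214602945-214603244, plus strand: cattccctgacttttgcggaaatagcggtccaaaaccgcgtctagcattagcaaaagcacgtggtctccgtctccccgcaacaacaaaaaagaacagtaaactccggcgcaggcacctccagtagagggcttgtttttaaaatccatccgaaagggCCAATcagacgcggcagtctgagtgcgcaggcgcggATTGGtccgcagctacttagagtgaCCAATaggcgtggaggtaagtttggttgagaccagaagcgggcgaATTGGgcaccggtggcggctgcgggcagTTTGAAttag
NUF2, chr1:163321704-163322003, plus strand: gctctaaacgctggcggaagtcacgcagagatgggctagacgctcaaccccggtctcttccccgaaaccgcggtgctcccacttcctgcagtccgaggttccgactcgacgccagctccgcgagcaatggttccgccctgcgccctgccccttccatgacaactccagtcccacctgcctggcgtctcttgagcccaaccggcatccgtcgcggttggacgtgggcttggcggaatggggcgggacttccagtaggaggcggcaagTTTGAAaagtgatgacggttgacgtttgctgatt
SPC24, chr19:11155733-11156032, minus strand: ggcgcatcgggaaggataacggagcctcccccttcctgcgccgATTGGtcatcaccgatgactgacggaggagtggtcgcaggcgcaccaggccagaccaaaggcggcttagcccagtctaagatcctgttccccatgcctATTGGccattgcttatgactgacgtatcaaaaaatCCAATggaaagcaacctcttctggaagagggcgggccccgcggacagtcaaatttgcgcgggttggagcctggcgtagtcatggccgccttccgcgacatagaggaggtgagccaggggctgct
CENPA, chr2:26785806-26786105, plus strand: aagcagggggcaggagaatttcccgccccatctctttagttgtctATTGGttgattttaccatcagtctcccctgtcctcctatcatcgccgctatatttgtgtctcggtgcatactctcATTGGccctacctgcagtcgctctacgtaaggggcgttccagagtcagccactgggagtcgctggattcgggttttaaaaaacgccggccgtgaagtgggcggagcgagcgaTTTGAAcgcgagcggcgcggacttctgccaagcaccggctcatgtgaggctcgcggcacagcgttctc

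Windows were found for 32 of the 38 members. A CHR core was present in 17 of the 32 (53.1%), against 11.3% of 10901 windows of tested genes and 16.4% of the 35116 windows searched. Members and tested genes had a single window each, and both backgrounds left out a chromosome that holds no member. The core was present in 5 of the 7 members with a window that fell and in 12 of the 25 that were not called. In the window of CENPF it starts 40 bases after the gene start, in that of NUF2 16 bases after it, and in that of CENPA 18 bases before it. The windows of CENPE and SPC24 hold no such match. CCAAT was present in 20 of the 32 windows (62.5%, against 36.4% of those of tested genes), and either E2F-type element in 2 (6.25%, against 2.05%). These are matches of letters in a window and were not tested for use in these cells. No listed match overlaps another one in the 5 windows shown.

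In the KMN network, 3 of 10 genes fell. KNL1, the scaffold that binds the checkpoint proteins BUB1 and BUB3, lay at 15.0 and 9.39 CPM in Rib_CA, against 101 and 78.9 CPM in DMSO. It fell 7.39-fold (log2 fold change -2.89 ± 0.35 SE; adjusted p = 0.0285). ZWINT, which binds KNL1 and helps to bring in the RZZ complex, lay at 131 and 120 CPM in Rib_CA, against 153 and 131 CPM in DMSO, and did not pass (log2 fold change -0.18 ± 0.25 SE). The NDC80 complex, the main microtubule coupler, is built from NDC80 and NUF2, which reach the microtubule, and SPC24 and SPC25, which dock on the MIS12 complex and on CENPT. NDC80 lay at 24.6 and 20.3 CPM in Rib_CA, against 84.4 and 63.0 CPM in DMSO, and fell 3.28-fold (adjusted p = 0.0297). NUF2 lay at 15.4 and 21.0 CPM in Rib_CA, against 55.8 and 42.8 CPM in DMSO, and fell 2.70-fold (adjusted p = 0.0450). Thus the microtubule-facing pair passed, though neither gene did without DMSO 1, nor NUF2 without DMSO 2. The docking pair did not: SPC24 had 26.7 and 24.6 CPM in Rib_CA, against 33.7 and 26.8 CPM in DMSO (log2 fold change -0.24 ± 0.28 SE). SPC25 had 15.1 and 31.3 CPM in Rib_CA, against 33.3 and 31.2 CPM in DMSO, so that Rib_CA 2 lay between the DMSO libraries. Its log2 fold change was -0.48 ± 0.39 SE, and rested on which Rib_CA library was used. Without Rib_CA 2 it was -1.10, and without Rib_CA 1 it was -0.085.

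Of the MIS12 complex, which joins the inner and outer kinetochore, no subunit passed in the edgeR test of all 4 libraries. MIS12 came nearest, at 22.2 and 25.5 CPM in Rib_CA, against 61.5 and 40.7 CPM in DMSO (log2 fold change -1.10 ± 0.31 SE; adjusted p = 0.0806). It passed in DESeq2 (adjusted p = 0.0112) and in edgeR without Rib_CA 1 or without Rib_CA 2 (adjusted p = 0.0470 and 0.0472). DSN1 and NSL1 had log2 fold changes of -0.25 ± 0.35 and -0.54 ± 0.36. That of NSL1 was -1.06 without Rib_CA 2 and -0.21 without Rib_CA 1. PMF1 pointed the other way, at 21.6 and 14.4 CPM in Rib_CA, against 9.57 and 10.6 CPM in DMSO (log2 fold change 0.84 ± 0.33 SE; adjusted p = 0.159). Its log2 fold change was 1.10 without Rib_CA 2 and 0.47 without Rib_CA 1. PMF1 overlaps the read-through gene PMF1-BGLAP on the same strand over 23.3% of its exonic bases, and how such reads were counted is not stated.

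Of the 14 CCAN genes, 2 fell, and the complexes of the network were split. CENPC, the protein that bridges the CENPA nucleosome and the MIS12 complex, lay at 11.4 and 11.2 CPM in Rib_CA, against 41.3 and 30.2 CPM in DMSO. It fell 3.17-fold (log2 fold change -1.66 ± 0.30 SE; adjusted p = 0.0319). CENPU, a docking protein for the kinase PLK1 in the group of CENPO, CENPP, CENPQ and CENPU, lay at 26.5 and 19.3 CPM in Rib_CA, against 89.2 and 69.7 CPM in DMSO, and fell 3.47-fold (adjusted p = 0.0296). Both calls were lost without DMSO 1. The partners of CENPU did not pass in the main test: log2 fold changes were -0.04 ± 0.26 for CENPO, -0.23 ± 0.26 for CENPP and -0.54 ± 0.49 for CENPQ. Without Rib_CA 2 that of CENPQ was -1.44, and without Rib_CA 1 it was -0.022. CENPO shares 27% of its exonic bases with ADCY3, and CENPP 38% with IPPK, both on the opposite strand, so those reads are separable only if counting used strand. The same holds for 12.8% of CENPN (with CMC2), 11.7% of CENPU (with PRIMPOL), 10.8% and 6.86% of CENPT (with TSNAXIP1 and THAP11) and 9.53% of MIS12 (with DERL2).

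CENPH had the largest increase among the members, at 17.0 and 17.4 CPM in Rib_CA, against 7.99 CPM in both DMSO libraries. Its level was 2.15-fold higher, with close replicates in each group, but it did not pass in edgeR (log2 fold change 1.11 ± 0.30 SE; adjusted p = 0.0724) and did in DESeq2 (adjusted p = 0.0142) and in edgeR without Rib_CA 1 or without Rib_CA 2 (adjusted p = 0.0337 and 0.0483). CENPI, CENPK and CENPM, which form one complex with CENPH, had log2 fold changes of -0.74 ± 0.30, -0.52 ± 0.40 and 0.92 ± 0.42, and none passed in the main test. Without Rib_CA 2 these values were -0.83, -1.11 and 1.32, and without Rib_CA 1 they were -0.69, -0.14 and 0.32. CENPN and CENPL, which read the CENPA nucleosome together, had log2 fold changes of -0.80 ± 0.26 (adjusted p = 0.106) and 0.16 ± 0.30, and CENPN passed in DESeq2 (adjusted p = 0.0377) and in edgeR without Rib_CA 1 (adjusted p = 0.0391). CENPT, CENPW and CENPX belong to a histone-fold complex that offers a second route to NDC80, and their log2 fold changes of 0.19 ± 0.30, 0.60 ± 0.35 and 0.88 ± 0.44 did not pass.

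None of the 5 genes of centromeric chromatin and its loading passed, and all 5 had positive log2 fold changes, from 0.14 to 0.66, though those of CENPB, HJURP, MIS18A and OIP5 turned negative in fits without 1 library and that of CENPB also with either correction for GC content. CENPA lay at 22.6 and 24.9 CPM in Rib_CA, against 17.2 and 13.2 CPM in DMSO (log2 fold change 0.64 ± 0.29 SE; adjusted p = 0.211). It was the one gene of the 5 whose groups did not overlap. CENPA shares 6.96% of its exonic bases with SLC35F6 on the same strand, and how such reads were counted is not stated. HJURP, the chaperone that deposits CENPA, lay at 96.0 and 31.4 CPM in Rib_CA, against 46.0 and 34.9 CPM in DMSO, so its 2 Rib_CA libraries lay on opposite sides of the DMSO libraries. The log2 fold change of HJURP was 0.66 with both Rib_CA libraries, -0.40 without Rib_CA 1 and 1.25 without Rib_CA 2. MIS18A and OIP5, which license centromeres for new CENPA, had log2 fold changes of 0.20 ± 0.37 and 0.39 ± 0.38. CENPB, which binds alpha-satellite DNA, lay at 276 and 195 CPM in Rib_CA, against 173 and 256 CPM in DMSO.

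Of the SKA complex, which keeps kinetochores on shrinking microtubule ends, SKA3 fell and SKA1 and SKA2 did not pass. SKA3 lay at 31.2 and 23.3 CPM in Rib_CA, against 88.9 and 85.7 CPM in DMSO (3.21-fold lower; adjusted p = 0.0293), and lost its call without either DMSO library. SKA1 lay at 32.7 and 34.2 CPM in Rib_CA, against 33.1 and 37.8 CPM in DMSO (log2 fold change -0.08 ± 0.26 SE), and SKA2 had a log2 fold change of -0.33 ± 0.29. Of the chromosomal passenger complex, which corrects wrong attachments at the inner centromere, INCENP, its scaffold, lay at 92.9 and 60.3 CPM in Rib_CA, against 161 and 180.4 CPM in DMSO. INCENP did not pass in the edgeR test (log2 fold change -1.16 ± 0.30 SE; adjusted p = 0.0674), and passed with no filter on low counts (adjusted p = 0.0497), in DESeq2 (adjusted p = 0.00718), and in edgeR without Rib_CA 1 or without Rib_CA 2 (adjusted p = 0.00658 and 0.0493). CDCA8, also called borealin, had a log2 fold change of -0.24 ± 0.29.

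**Figure D2:**
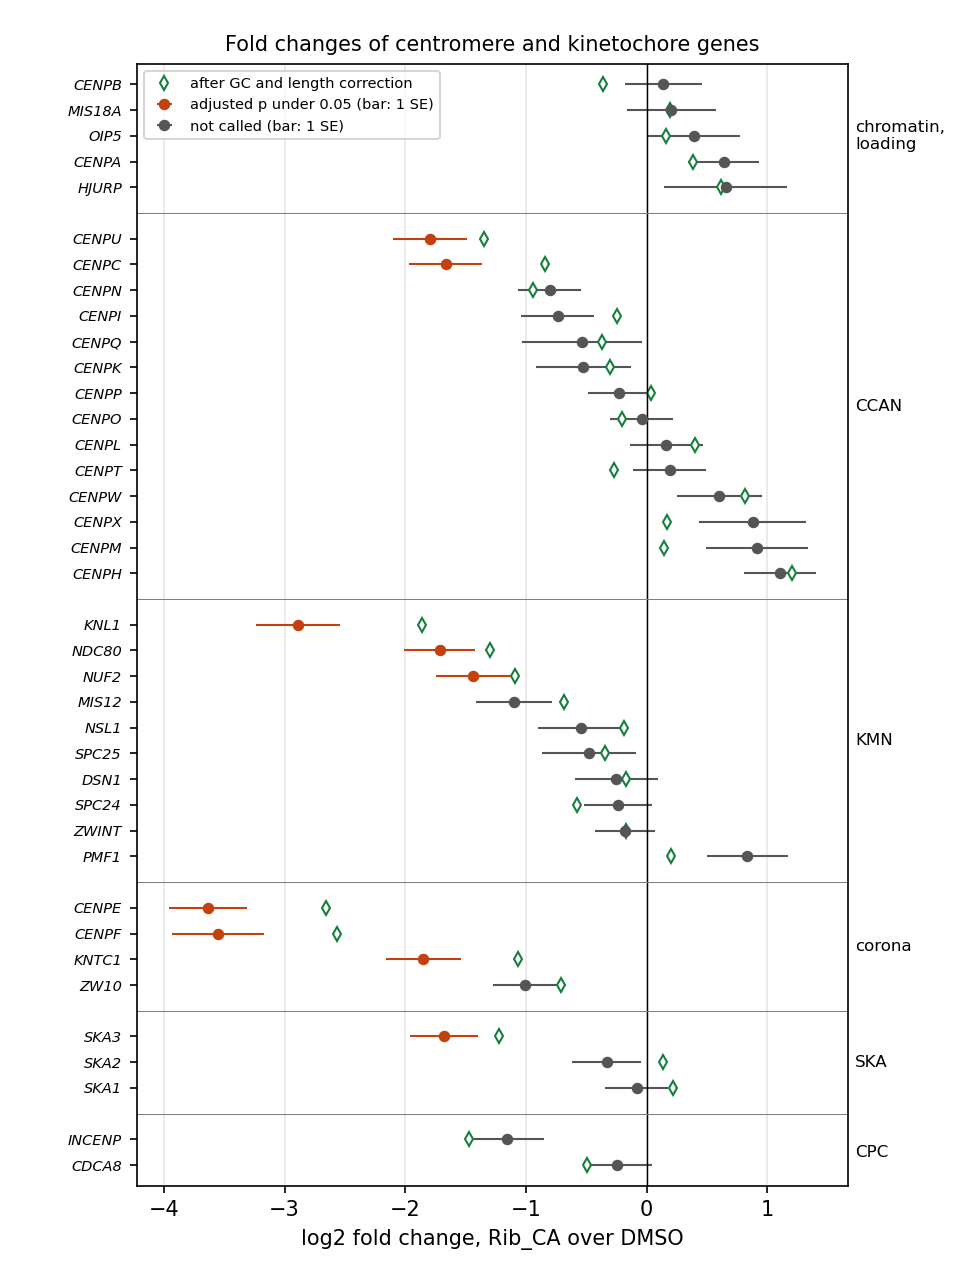
Log2 fold change of each gene, Rib_CA over DMSO, with 1 SE derived from edgeR's F statistic (circles) and with trends in GC content and transcript length removed from every library (diamonds). The 9 called genes lie between -3.64 and -1.44, and their corrected values between -2.66 and -0.84.

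The 9 calls differed in how far they rested on single libraries and on library composition. KNL1, CENPE and CENPF passed in each of the 4 fits that left out 1 library. In such a fit one group has a single library, and the spread comes from the other group alone and is assumed to hold for both. Leaving out DMSO 1 ended the calls of CENPC, CENPU, NDC80, NUF2, KNTC1 and SKA3, and leaving out DMSO 2 those of NUF2 and SKA3. With 1 library left out, CENPE was 10.4-fold to 14.6-fold lower, CENPF 9.23-fold to 15.2-fold and KNL1 6.02-fold to 9.84-fold. With GC content and transcript length modelled as smooth trends within each library and removed, none of the 38 passed, nor any other gene. In that fit 15 of the 38 members had an unadjusted p under 0.05, beside 3381 of all 13667 genes tested. After that correction all 9 remained on the lower side, CENPE at 6.32-fold lower, CENPF at 5.92-fold, KNL1 at 3.64-fold, CENPU at 2.54-fold, NDC80 at 2.45-fold, SKA3 at 2.34-fold, NUF2 at 2.13-fold, KNTC1 at 2.09-fold and CENPC at 1.79-fold. The smallest adjusted p of the 9 was 0.0822, and INCENP, not among them, had the same adjusted p at 2.78-fold lower. Of the 29 members not called, 16 were also on the lower side after the correction. The 9 had been called for being low in the same libraries.

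Ratios between subunits in the same library do not depend on how libraries are scaled, and they were taken as counts per kilobase of the longest annotated transcript. The smallest two-sided p of an exact permutation test is 0.333 for 2 libraries against 2, so the ratios are given without a test. The ratio of NDC80 to SPC24 was 0.981 and 0.880 in Rib_CA, against 2.67 and 2.50 in DMSO, and that of NUF2 to SPC24 was 0.676 and 1.007 in Rib_CA, against 1.94 and 1.87 in DMSO. For NDC80 to SPC25 the ratio was 1.02 and 0.404 in Rib_CA, against 1.58 and 1.26 in DMSO. For NUF2 to SPC25 it was 0.700 and 0.463 in Rib_CA, against 1.15 and 0.943 in DMSO. Within the NDC80 complex the transcripts of the microtubule-facing pair were thus lower relative to SPC24 and to SPC25 in both Rib_CA libraries. The ratio of KNL1 to ZWINT was 0.0223 and 0.0153 in Rib_CA, against 0.129 and 0.118 in DMSO. The ratio of CENPE to ZW10 was 0.186 and 0.127 in Rib_CA, against 1.05 and 0.850 in DMSO. The ratio of SKA3 to SKA2 was 0.737 and 0.398 in Rib_CA, against 1.503 and 1.27 in DMSO. In all of these the groups lay apart. Of the 12 pairs taken, the Rib_CA libraries were below both DMSO libraries in 10, above in 1 and overlapping in 1. Except in SKA1 to SKA2, the gene placed on top had the lower log2 fold change of its pair, so this count largely restates the fold changes above. Ratios over other pairs of genes were not computed. INCENP to CDCA8 was also separated, at 0.632 and 0.593 in Rib_CA, against 1.17 and 1.15 in DMSO, and so was CENPC to CENPA, at 0.105 and 0.0940 in Rib_CA, against 0.501 and 0.477 in DMSO. CENPT to CENPW overlapped, at 1.011 and 0.424 in Rib_CA, against 0.811 and 0.922 in DMSO. The correction for GC content and length changed these differences unequally: on the log2 scale that of NDC80 to SPC24 was -1.47 before and -0.71 after it, that of NUF2 to SPC24 -1.21 and -0.51, that of KNL1 to ZWINT -2.74 and -1.69, and that of CENPC to CENPA -2.30 and -1.22. That of CENPE to ZW10 was -2.62 before and -1.95 after it, and that of CENPT to CENPW -0.40 and -1.09. For SKA3 to SKA2 the difference was -1.35 before and -1.36 after the correction, and for INCENP to CDCA8 -0.92 and -0.98. For NDC80 to SPC25 it was -1.14 before and -0.95 after the correction, and for NUF2 to SPC25 -0.87 and -0.75.

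**Figure D3:**
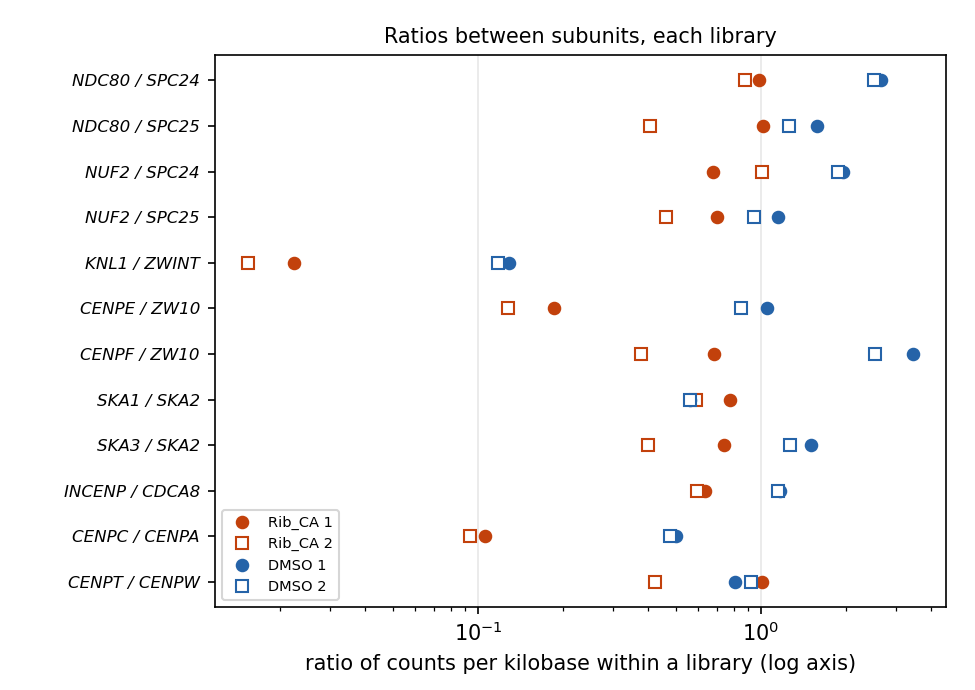
Ratio of counts per kilobase between 12 pairs of genes in each library, on a log axis. Rib_CA points lie left of both DMSO points for 10 pairs, right of them for SKA1 to SKA2, and on both sides for CENPT to CENPW.

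The members that fell had GC contents below the median of all genes tested (48.9%), and their coding lengths ran from below the median of all genes (1362 bases) in SKA3 and CENPU to the longest of the members. Their coding lengths ran from 1236 to 9342 bases (median 2829) and their GC contents from 35.3 to 41.6% (median 38.8%), whereas the 29 other members had coding lengths of 243 to 2754 bases (median 807) and GC contents of 32.9 to 66.2% (median 45.6%). Across the 38 members, log2 fold change ran with coding length at a Spearman rho of -0.67 and with GC content at 0.56. Across 13620 tested genes with a coding length the same rho were -0.33 and 0.48, so the direction was shared by all genes. Genes are not independent replicates and all values come from the same 4 libraries. Without Rib_CA 1 the rho of the members with GC content was 0.27, and after the GC and length correction it was 0.28, while the rho with coding length was -0.76 and -0.65 in these 2 settings.

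**Figure D4:**
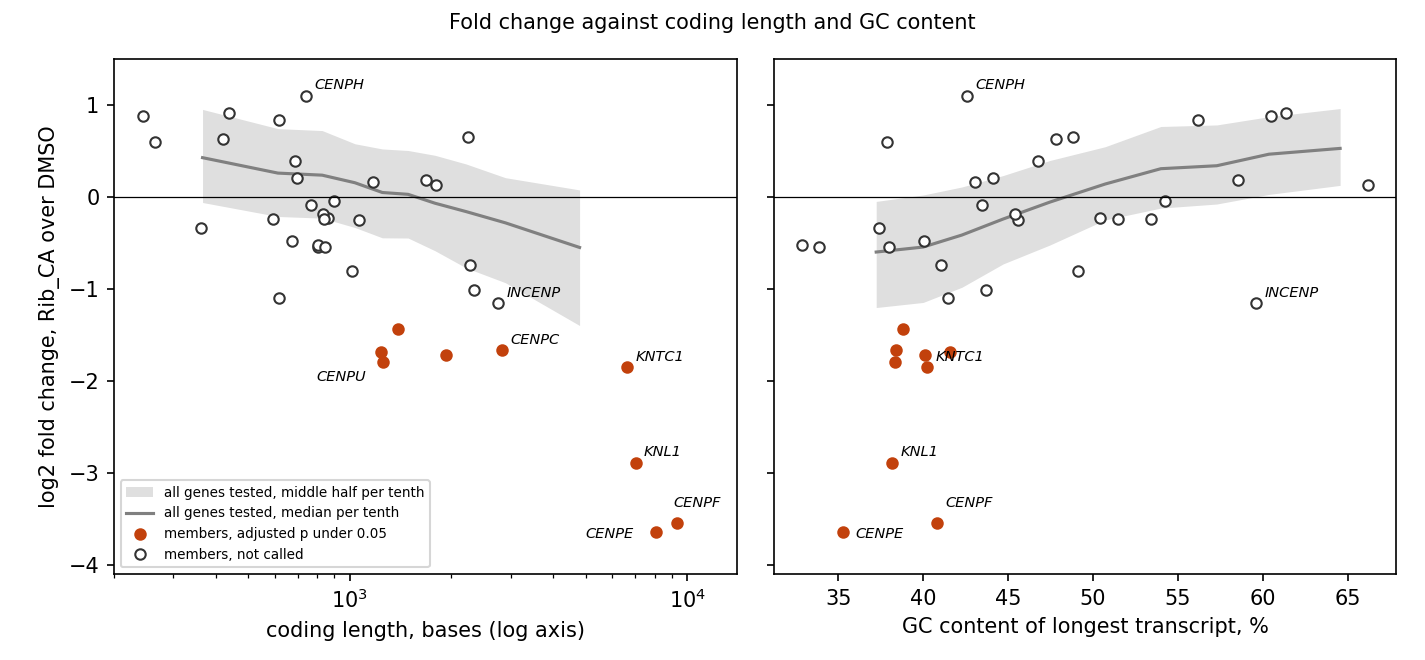
Log2 fold change, Rib_CA over DMSO, of the 38 members against coding length (log axis) and transcript GC content, with the median and middle 50% of all tested genes in 10 equal-sized classes. All members called lower, and some not called such as INCENP, lie below the middle 50% of the genes of their class in both panels.

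When all genes were divided into 5 equal-sized classes by coding length, the 2 shortest classes held 22 members, none of them called lower, and 0.678% of all their genes were called lower. The 3 longest classes held 16 members, 9 of them called lower, and 8.07% of all their genes were. Among the 576 genes in the longest class of coding length and the lowest class of GC content, 42.4% were called lower, with a median log2 fold change of -1.37. CENPC, CENPE, CENPF, KNL1 and KNTC1 are in this class, and their median was -2.89. Of the classes that hold the other 4, CENPU and NUF2 came from one in which 6.92% of 520 genes were called lower, NDC80 from one with 17.6% of 608 and SKA3 from one with 3.92% of 586. INCENP lay in a different class: in that of the longest genes with the highest GC content 0.188% of 532 genes were called lower and the median was 0.37, beside its own -1.16. The part of GC content and length in the members' calls was not tested beyond the corrections above.

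**Figure D5:**
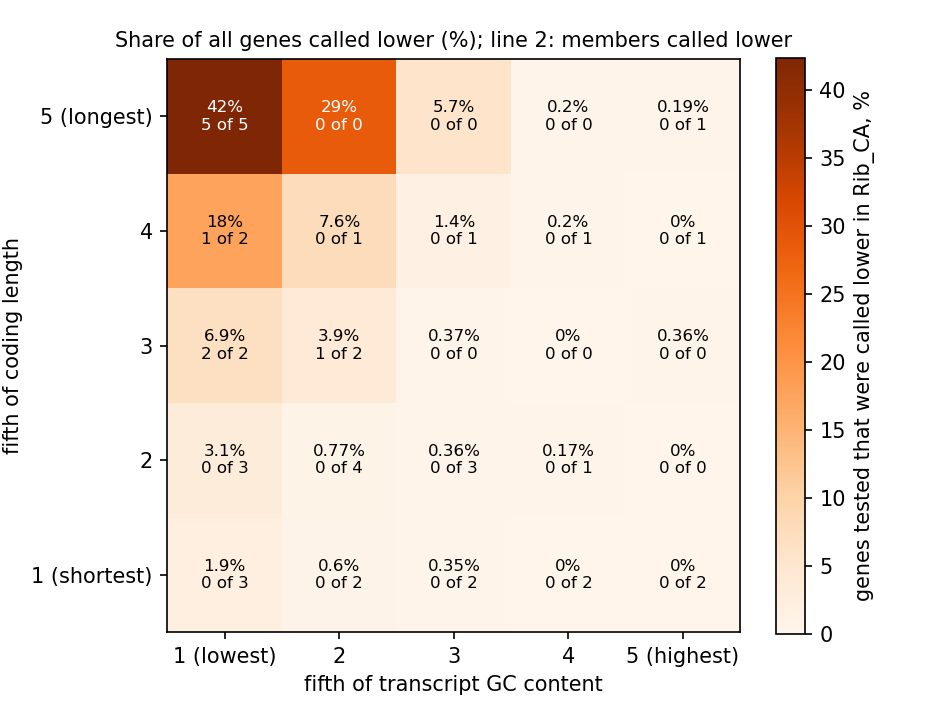
Share of all tested genes called lower in Rib_CA, in 5 classes of coding length by 5 classes of transcript GC content, with the number of members called lower and of members in each class written below. The share is 42.4% in the class of the longest genes with the lowest GC content, where 5 of 5 members were called lower.

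GC content also ran with differences between the libraries of a group. The log2 difference of Rib_CA 2 from Rib_CA 1 had a Spearman rho with GC content of -0.50 over the 38 members and -0.43 over all genes, and that of DMSO 2 from DMSO 1 one of 0.28 and 0.31. Among the members with low GC content, CENPQ lay at 9.85 CPM in Rib_CA 1 and 26.9 CPM in Rib_CA 2, CENPK at 17.3 and 34.6 CPM, and NSL1 at 15.0 and 28.0 CPM. In the other direction, CENPM, of high GC content, lay at 22.3 CPM in Rib_CA 1 and 11.4 CPM in Rib_CA 2. CENPQ, CENPK, NSL1 and CENPM had standard errors of 0.36 to 0.49 on the log2 scale. Not all members of low GC content were higher in Rib_CA 2. In Rib_CA 1 and 2, CENPE lay at 13.02 and 10.4 CPM, KNL1 at 15.0 and 9.39 CPM and CENPU at 26.5 and 19.3 CPM.

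A list of 30 partner genes, which regulate or bind the kinetochore, was read from the same fit. Of these, 9 fell and none rose (30.0%, beside 5.11% of all genes), and their median log2 fold change was -0.57. At an unadjusted p under 0.05, 12 partners were lower and 0 higher, beside 2011 and 1868 of all 13667 genes tested. DESeq2 called 12 partners lower and 0 higher, beside 1514 and 1043 of all genes. No partner passed with the GC and length correction. The checkpoint kinase genes TTK, BUB1 and BUB1B fell 5.24-fold, 3.36-fold and 4.04-fold, and SGO1 and SGO2, protectors of centromeric cohesion, 3.04-fold and 5.87-fold. The kinesin KIF18A fell 5.42-fold, the microtubule plus-end protein CLIP1 4.10-fold and the helicase-like gene ERCC6L, which acts on anaphase DNA bridges, 3.69-fold. The coding lengths of the 9 partners that fell ran from 1581 to 4314 bases. Without DMSO 1, BUB1, BUB1B, SGO1 and ERCC6L lost their calls, and SGO1 did so without DMSO 2 too. The 5 partners with the largest p were NDE1, NDEL1, MAD2L1, BIRC5 and CENPV, with log2 fold changes of -0.02 ± 0.28, 0.02 ± 0.25, 0.07 ± 0.43, 0.18 ± 0.47 and 0.14 ± 0.33. MAD2L1, a checkpoint gene, lay at 40.9 and 101 CPM in Rib_CA, on either side of its 70.5 and 65.1 CPM in DMSO.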

How the data were processed

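The deposited table holds raw counts per gene, and for the authors' aligner, counter, annotation and strand setting the entry is: not given in the sources used here. Per the submitters' processing notes the builds were GRCm38 and mm10, which are mouse builds, whereas the row names are human Ensembl IDs, so the build used could not be settled. Positions, coding lengths and GC content come from GENCODE release 29 (GRCh38), matched by ID for 20224 of 20263 rows, and promoter windows from RefSeq (GRCh38.p14). Between 67.7% and 70.7% of the counts from 1 to 10 were even numbers in each library, and how reads of a pair were counted is not stated.

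Low counts were removed with edgeR's filterByExpr at its minimum count of 10 and total of 15, and the remaining genes were scaled by TMM and tested with edgeR 4.0.16 (robust quasi-likelihood fit, no covariate, 13667 genes, Benjamini-Hochberg threshold 0.05) in R 4.3.3. The biological coefficient of variation was 0.31. DESeq2 1.42.0, other scalings and filters, a replicate block, leaving out each library, and smooth GC and length offsets (mgcv 1.9.3, 6 basis functions) were the alternatives, and a crossed block was added after seeing the data. The edgeR fit was tested on simulated data. Replicates of a group differed by more than counting noise (chi-square over its degrees of freedom 265.3 in Rib_CA and 256.6 in DMSO). All 38 members are named whatever their values; of the partners, those past the threshold, except 1 that is not reported here, and the 5 with the largest p. The members and lists were chosen with earlier results of these data known.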

Additional observations from a re-analysis of the deposited data

How the results depend on the processing

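The main test called 9 members lower and 0 higher, and over all genes 699 lower and 275 higher, with a member median of -0.29. Median-of-ratios size factors, a filter of 5 CPM and the replicate block changed no member call; with the replicate block, 260 genes were higher and 687 lower. Same-numbered libraries deviated with a correlation of -0.19, so the numbers are not taken as pairs, and the crossed block called 12 members lower and 1 higher (all genes 1267 lower, 724 higher). DESeq2 called 1 member higher (all genes 1514 lower, 1043 higher). With no filter 448 genes were higher, and with the 5 CPM filter 418. Total counts alone gave 328 genes lower and a member median of -0.082. The GC correction and the GC and length correction each called 0 members and 0 genes lower and 0 higher, while 3604 and 3381 genes had an unadjusted p under 0.05. Leaving out 1 library in turn gave 3 to 15 members lower, 0 to 4 higher, 137 to 1634 genes lower, 36 to 1234 higher and medians from -0.59 to -0.26. The causes were not tested.

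Some log2 fold changes of members that did not pass changed sign. With total counts alone CENPO was 0.15, ZWINT 0.010 and SKA1 0.13. With the GC correction CENPB was -0.43, CENPK 0.088, CENPQ 0.028, CENPT -0.21, ZWINT 0.072, NSL1 0.047, SPC25 0.067, SKA1 0.31 and SKA2 0.30. With the GC and length correction CENPB was -0.36, CENPP 0.035, CENPT -0.27, SKA1 0.22 and SKA2 0.14. Leaving out 1 library in turn gave -0.19 to 0.44 for CENPB, -0.40 to 1.25 for HJURP, -0.29 to 0.53 for MIS18A, -0.027 to 0.68 for OIP5, -0.093 to 0.34 for CENPL, -0.24 to 0.10 for CENPO, -0.15 to 0.44 for CENPT, -0.60 to 0.084 for DSN1 and -0.18 to 0.012 for SKA1. The 2 libraries per group, and not the 241 or more counts of each member in a library, limit the precision.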
